A study of Mus musculus with 2 samples.

Results

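Wide accessible regions of mouse CD8+ T cells were examined, taken as ATAC-seq peaks of at least 2000 bp. ATAC-seq uses a transposase to place sequencing adapters in accessible DNA, and a peak is an interval where a peak caller found more reads than in the local background. The 2 libraries, 1 titled control and 1 titled treatment, each had a peak list of their own. Both came from T cells that the titles call CD8+ and the series title calls Peml-1. In their treatment field the entry is "Treatment" where the title says control and "Combined treatment" where it says treatment, the genotype field of both gives an assay name, and the agent, dose, time, strain and age are not given in the sources used here. Control and treatment below mean the libraries with these titles, and with 1 library of each no difference was checked against a spread between replicates. On chromosomes 1 to 19, 728 of 83295 control peaks (0.874%, exact 95% binomial interval 0.812 to 0.940%) and 468 of 63351 treatment peaks (0.739%, interval 0.674 to 0.809%) were wide, 1196 intervals of 146646 in all. Intervals on percentages are exact (Clopper-Pearson) and cover counting error only. Joined where they overlapped, the wide peaks made 805 loci, of which 391 were wide in both libraries, 337 in control alone and 77 in treatment alone.

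Most accessible sites are short, since a bound enhancer or promoter frees about the length of a few nucleosomes. Longer stretches are typical of CpG islands, promoter regions rich in unmethylated CG dinucleotides, and of clusters of neighbouring regulatory sites that a peak caller joins into 1 interval. Long active promoter domains are known at genes that set cell identity, while developmental regulators that lymphocytes do not use often lie in CpG islands held by Polycomb proteins.

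The sequence just before an annotated gene start was taken for 2 sets of members, from the RefSeq promoter table of GRCm38.p6, the assembly that mm10 names. Each is 250 bases, 5′ to 3′ on the gene's strand and ending at the base before a start in that table, with every CG dinucleotide in capitals. The first set shows regulators of T cells that were wide in both libraries: Foxo1 (chr3:52268087-52268336, plus strand), a transcription factor of naive T cells; Jun (chr4:95052223-95052472, minus strand), a subunit of AP-1; Ikzf1 (chr11:11685675-11685924, plus strand), which encodes Ikaros; and Slfn2 (chr11:83064862-83065111, plus strand), a Schlafen gene needed for T cell quiescence.
Foxo1: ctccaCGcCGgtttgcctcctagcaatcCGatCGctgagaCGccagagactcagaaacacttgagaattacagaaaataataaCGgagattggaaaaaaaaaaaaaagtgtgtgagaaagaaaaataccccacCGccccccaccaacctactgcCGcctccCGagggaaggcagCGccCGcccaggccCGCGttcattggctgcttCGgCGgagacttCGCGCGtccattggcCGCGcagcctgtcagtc
Jun: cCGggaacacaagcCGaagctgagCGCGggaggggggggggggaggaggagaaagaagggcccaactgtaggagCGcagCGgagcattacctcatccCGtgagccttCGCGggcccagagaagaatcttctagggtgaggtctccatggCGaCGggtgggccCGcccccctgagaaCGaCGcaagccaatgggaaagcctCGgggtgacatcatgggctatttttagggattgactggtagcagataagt
Ikzf1: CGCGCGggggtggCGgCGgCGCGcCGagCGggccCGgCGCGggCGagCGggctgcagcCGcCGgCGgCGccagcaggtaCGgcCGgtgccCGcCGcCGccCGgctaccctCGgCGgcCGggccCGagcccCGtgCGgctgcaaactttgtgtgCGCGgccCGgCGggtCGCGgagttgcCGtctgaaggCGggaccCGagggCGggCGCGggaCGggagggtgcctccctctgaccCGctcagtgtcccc
Slfn2: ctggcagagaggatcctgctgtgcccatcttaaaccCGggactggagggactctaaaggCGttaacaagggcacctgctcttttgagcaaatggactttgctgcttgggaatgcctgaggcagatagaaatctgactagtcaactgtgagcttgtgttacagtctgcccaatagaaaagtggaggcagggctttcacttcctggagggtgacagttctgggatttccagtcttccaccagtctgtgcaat
These 4 starts differed in base composition though all lay in wide peaks: Ikzf1 had 44 CG dinucleotides and 82.0% G or C, Foxo1 20 and 56.0%, Jun 15 and 61.2%, and Slfn2 2 and 50.8%.

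The second set shows starts whose interval was wide in 1 library and broken or narrower in the other: Tox2 (chr2:163202877-163203126, plus strand), of the TOX family linked to T cell exhaustion; Nkx3-2 (chr5:41764221-41764470, minus strand), a homeobox gene of the skeleton; and Btg2 (chr1:134079156-134079405, minus strand), an antiproliferative gene.
Tox2: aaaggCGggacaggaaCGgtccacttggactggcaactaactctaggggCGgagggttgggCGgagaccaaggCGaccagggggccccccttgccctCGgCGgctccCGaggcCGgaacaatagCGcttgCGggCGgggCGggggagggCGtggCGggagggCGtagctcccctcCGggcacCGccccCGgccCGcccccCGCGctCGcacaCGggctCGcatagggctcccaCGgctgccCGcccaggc
Nkx3-2: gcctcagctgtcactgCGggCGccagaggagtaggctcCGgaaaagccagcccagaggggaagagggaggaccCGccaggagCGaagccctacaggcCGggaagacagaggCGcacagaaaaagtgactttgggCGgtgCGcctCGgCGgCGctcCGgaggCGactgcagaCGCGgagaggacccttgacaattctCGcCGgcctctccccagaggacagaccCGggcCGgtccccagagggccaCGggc
Btg2: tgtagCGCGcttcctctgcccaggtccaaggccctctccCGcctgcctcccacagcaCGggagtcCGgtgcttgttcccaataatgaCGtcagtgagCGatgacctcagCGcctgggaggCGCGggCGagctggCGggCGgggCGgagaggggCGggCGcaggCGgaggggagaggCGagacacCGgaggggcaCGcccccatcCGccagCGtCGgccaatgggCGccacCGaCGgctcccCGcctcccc
Tox2 had 27 CG dinucleotides in these 250 bases, Nkx3-2 had 21 and Btg2 had 27, so the sets overlap in CG number. For Ikzf1 and Tox2 the table's start lies inside the gene, downstream of the start used below for position and reach.

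Width was the value that chose the members, so widths, and the fold enrichment and coverage made from the same reads, are given as description. The wide control peaks had a median width of 2211 bp (quartiles 2092 and 2465) and reached 5767 bp, against a median of 521 bp over all control peaks. Wide treatment peaks had a median of 2250 bp (quartiles 2107 and 2463) and reached 4641 bp, against 533 bp over all. At least 2500 bp was reached by 167 control and 108 treatment peaks, at least 3000 bp by 39 and 23, and at least 4000 bp by 6 and 4. The members made up 1.71 of 52.4 Mb of control peak length (3.26%) and 1.10 of 40.1 Mb of treatment peak length (2.75%). The limit cut through a continuous run of widths. Just inside it in control lay peaks at Ino80d (2000 bp), Tox2 (2001 bp) and Zfp687 (2001 bp), and just outside it peaks at Hs2st1 (1999 bp) and Rasa4 (1998 bp). In treatment Rest (2000 bp), a peak near Ptpn6 (2000 bp) and Siah2 (2001 bp) lay just inside, and Map4k4 (1998 bp), Cpt1a (1998 bp) and Mrpl40 (1997 bp) just outside.

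Wide peaks were deep but not steep. Their summit, the point of highest coverage, held a median of 1109 reads in control and 987 in treatment, against 219 and 188 in the other peaks. The local background was raised with it, at a median of 123 and 111 reads against 21.8 and 21.4. The authors' fold enrichment at the summit was therefore close to that of other peaks, with a median of 9.06 (quartiles 7.02 and 10.8) against 8.18 in control and 8.28 (quartiles 6.42 and 10.2) against 7.35 in treatment. Only 34 of the 728 control members and 29 of the 468 treatment members stood in the highest 25% of their list by fold enrichment. By −log10 q, which grows with read number, 231 and 119 stood in the highest 10%. Median fold enrichment was highest in peaks from 1000 to under 1500 bp, at 13.9 in control and 13.2 in treatment, and it fell to 7.40 and 6.97 in those of 2500 bp or more.

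Both lists were checked for the labelled cell type at gene ends, meaning within 1000 bp of the span's start or end in protein-coding genes. All 9 CD8 T cell markers, Cd8a, Cd8b1, the Cd3 chains and their signalling partners among them, had a peak there in both libraries, and none of these peaks at gene ends was wide (719 to 1977 bp in control, 668 to 1918 bp in treatment). Of all 20661 protein-coding genes, 68% had such a peak in control and 63.3% in treatment. B cell markers had one at 4 of 7 genes in control and 3 in treatment, with none at Pax5 or Ms4a1. Myeloid markers had one at 6 and 4 of 7, CD4 and regulatory T cell markers at 4 and 4 of the 4 matched, NK cell markers at 1 and 1 of 6, and erythroid markers at 3 and 2 of the 4 matched. No wide peak lay at an end of any gene of these 5 lists in either library. What part other cells had in the members was not tested.

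**Figure D1:**
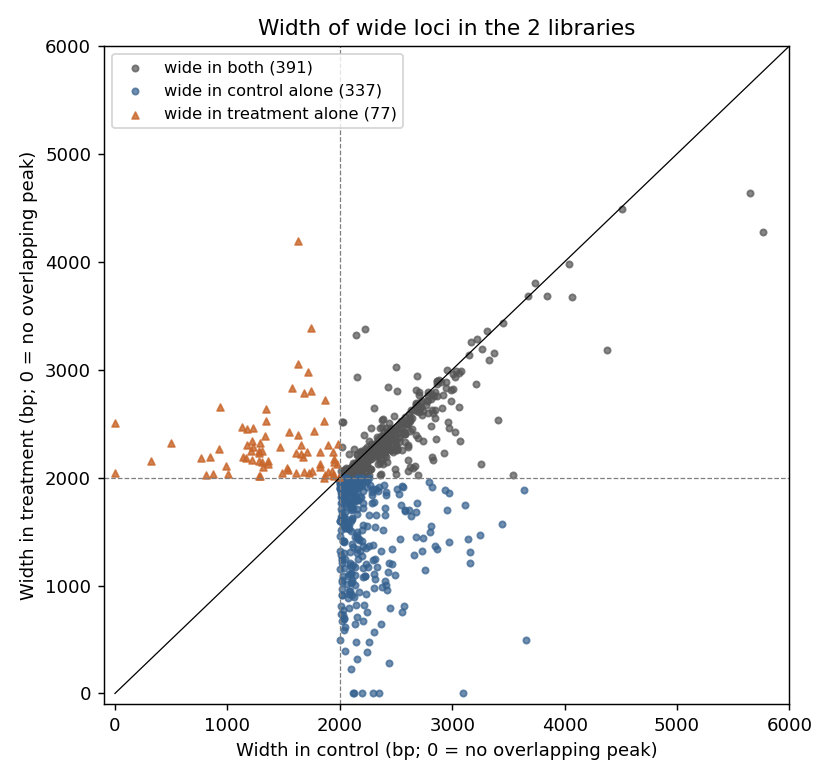
Each point is 1 of the 805 loci, with its peak width in control on the x axis and in treatment on the y axis, both in bp; where a library had several overlapping peaks the widest is drawn, 0 means none, and the dashed lines mark 2000 bp. The 391 loci wide in both lie near the diagonal, while 337 lie below the line of treatment and 77 left of the line of control.

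Nearly every wide peak had a counterpart in the other library. Of the control members 722 of 728 (99.2%, interval 98.2 to 99.7%) overlapped a treatment peak by at least 1 bp, against 70.7% of all control peaks. Of the treatment members 466 of 468 (99.6%, interval 98.5 to 99.9%) overlapped a control peak, against 93.3% of all treatment peaks. The share rose with width over the whole list, from 46.2% of control peaks under 500 bp to 99.2% of those from 1500 to under 2000 bp, so the wide class did not stand apart from the next narrower one. Wide peaks of the other library were met by 391 control members (53.7%, interval 50.01 to 57.4%) and by 391 treatment members (83.5%, interval 79.9 to 86.8%). In the wide-wide pairs the matching edges lay a median of 31 bp apart, and 80.9% of edges lay within 100 bp of each other. Over all pairs of mutually widest overlap these values were 38 bp and 76.9%. In such pairs with a mean width of at least 2000 bp they were 40 bp and 74.0%. Asking for 2000 bp in both libraries favours pairs of like width, so edges of wide peaks were not shown to match more closely.

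The overlapping peak was on the whole a little narrower in treatment. For control members the widest overlapping treatment peak had a median width of 2032 bp, 0.935 times the member (quartiles 0.771 and 0.979). For treatment members the widest overlapping control peak had a median of 2270 bp, 1.02 times the member (quartiles 0.988 and 1.05). A peak chosen for its width in 1 library tends to be narrower in the other by the choice alone, and treatment members had the wider control peak in spite of that. Over all overlapping peaks the same ratios were 0.912 for control peaks and 1.10 for treatment peaks. Wide peaks thus shared the direction of the whole lists, at ratios nearer to equal width. A given shift in bp moves the ratio less in a longer peak. In bp the median edge distance was 40 in pairs with a mean width of at least 2000 bp and 38 in all pairs. In 509 pairs of mutually widest overlap chosen on the mean width of both libraries, the treatment peak was a median of 0.967 times the control peak (quartiles 0.918 and 0.992), and control was wider in 422, treatment in 86, with 1 equal. All 58475 such pairs had a median of 0.910.

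Many of the loci wide in a single library were near the limit in the other. Among the 337 wide in control alone, the widest treatment peak measured 1500 bp or more in 203, from 1000 to under 1500 bp in 84, and less or nothing in 50. Among the 77 wide in treatment alone the same counts were 39, 27 and 11. The larger gaps were mostly breaks. Of 722 control members with an overlap, 131 (18.1%, interval 15.4 to 21.2%) met 2 or more treatment peaks, against 1.03% of all overlapping control peaks and 7.56% of those from 1500 to under 2000 bp. Of 466 treatment members 62 (13.3%, interval 10.4 to 16.7%) met 2 or more control peaks, against 0.63% and 5.26%. Breaks thus ran both ways, and their share was higher in longer peaks of both lists. A longer interval has room for more peaks of the other library. The part of length, and of the choice on width, in these shares was not tested. In the broken control members the treatment pieces together spanned a median of 0.954 of the member and covered 77.9% of its bases.

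A width at least 1.5 times that of the widest overlapping peak was found in 135 of 722 control members (18.7%, interval 15.9 to 21.7%). Over all overlapping control peaks the share was 15.3%. In treatment the share was 45 of 466 members (9.66%, interval 7.13 to 12.7%), against 2.8% of all overlapping treatment peaks. Choosing members on their width in 1 library raises both shares by itself, so neither is a result about the members. Of these 135 control members 106 met several treatment peaks, which covered a median of 71.8% of the member. Of the 45 treatment members 44 met several control peaks, covering a median of 84.3%. The opposite, a partner at least 1.5 times as wide as the member, was seen at 2 control members (0.277%, against 3.45%) and at 2 treatment members (0.429%, against 16.3%). Such a partner needs at least 3000 bp, which only 23 treatment and 39 control peaks reached. The limit of 2000 bp thus keeps these shares low, and they are no result about the members.

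Low coverage went with unequal width. The 44 control members with under 200 reads at the summit had a median ratio of 0.603 where an overlap was found, and the widest treatment peak was under 0.5 of the member, or missing, in 21 of them. Among the 682 with 200 reads or more the median ratio was 0.938 and 56 fell under 0.5. In treatment the 51 members with under 200 reads had a median ratio of 0.992, with 12 under 0.5, and the 413 others 1.02, with 4 under 0.5. The 2 libraries' total reads were not used here, so the part of depth in these differences was not tested.

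The widest members formed a mixed group of gene bodies, gene starts and stretches between genes. Sik3, a kinase of the salt-inducible family, held within its body a control peak of 5649 bp and a treatment peak of 4641 bp (chr9:46132768-46138416 in control). The widest control interval, 5767 bp with a treatment peak of 4277 bp, lay 23748 bp from the near end of Smurf2, a ubiquitin ligase, and was shallow, with 81 reads at its summit. Zmiz1, a coactivator that works with Notch1 in T cells, had 4380 bp in control and 3181 bp in treatment over an end of the gene (chr14:25457434-25461813 in control). Cdk6, a cyclin-dependent kinase of the G1 phase, had 3737 and 3806 bp (chr5:3341068-3344804 in control). Jade2, a subunit of a histone acetylase complex, had 3846 and 3686 bp, and an interval near Trappc6b had 4035 and 3981 bp. These 6 loci were wide in both libraries, and only at Sik3, Zmiz1 and near Smurf2 did the widths differ by more than a few percent.

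Other members among the widest did differ. An interval 8598 bp from Stk38l, a kinase of the Hippo type, measured 3661 bp in control with 100 reads at the summit, and in treatment only pieces of at most 496 bp. Ptch1, the receptor of hedgehog ligands, had 3540 bp in control, and 2 treatment peaks of which the wider measured 2025 bp. In treatment an interval in the body of Akap6 measured 4189 bp with 122 reads at the summit, over 3 control peaks of which the widest measured 1626 bp. One near Nr4a2, a nuclear receptor gene induced by T cell receptor signals, measured 3383 bp (chr2:57114474-57117856) with 696 reads, over 2 control peaks that together measured 2833 bp. Midn, which encodes a protein that brings substrates to the proteasome, had 3326 bp in treatment and 2 control peaks of which the wider measured 2146 bp. Kif27, a kinesin gene, held a shallow interval of 3379 bp in treatment and 2225 bp in control, with 56 and 51 reads.

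Among the widest, 3 intervals away from genes were wide in both libraries and had very high coverage or background. The one 116400 bp from Gm2244 measured 3675 bp in control and 3680 bp in treatment, with 6264 reads at the control summit. Near Col19a1 the widths were 4507 and 4492 bp, and 106299 bp from Esp38 they were 4066 and 3678 bp, at fold enrichments of 2.83 and 2.82 in control. A local background over 300 reads was found in 30 control and 12 treatment members.

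Gene ends held a larger share of the wide peaks than of all peaks. By their summit, 423 of the 728 control members (58.1%, interval 54.4 to 61.7%) were at a gene end, against 17.2% of all control peaks. In treatment 244 of 468 (52.1%, interval 47.5 to 56.7%) were, against 20.2%. Gene bodies held 238 control members (32.7%, against 46.8% of all) and 172 treatment members (36.8%, against 45.7%). Between genes lay 67 (9.20%, against 36.0%) and 52 (11.1%, against 34.2%). The preference grew with width up to a plateau. In control 6.37% of peaks under 500 bp were at a gene end, 16.1% of those from 500 to under 1000 bp, 49.4% from 1000 to under 1500 bp, 60.03% from 1500 to under 2000 bp, 59.7% from 2000 to under 2500 bp and 52.7% of those wider. Treatment gave 7.16, 22.2, 53.6, 58.0, 53.9 and 46.3% in the same order. The wide class thus did not differ from peaks from 1500 to under 2000 bp beyond the counting intervals in control, where these were 58.2 to 61.9% for the narrower class and 55.5 to 63.8% for 2000 to under 2500 bp.

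**Figure D2:**
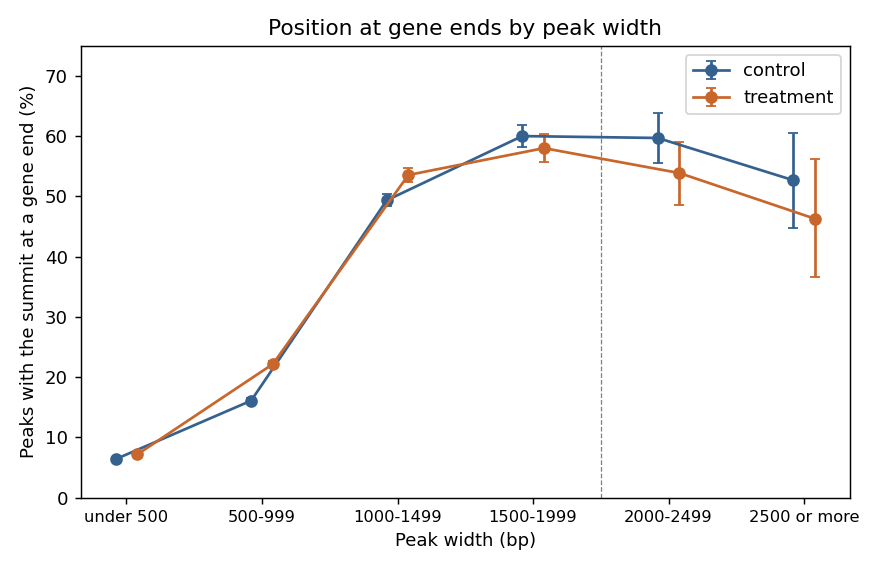
Share of peaks with the summit within 1000 bp of a protein-coding gene end (y axis, %) by peak width in bp (x axis), for control and treatment, with exact 95% binomial intervals; the dashed line marks 2000 bp. In both libraries the share climbs up to the class from 1500 to under 2000 bp, 60.03 and 58.0%, and is 52.7 and 46.3% in the widest class.

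At gene ends the wide peaks were at starts. Where the promoter table gave the strand, 293 of 308 control members at gene ends (95.1%, interval 92.1 to 97.2%) were on the start side, against 81.9% of all control peaks at gene ends. In treatment the count was 175 of 183 (95.6%, interval 91.6 to 98.1%), against 85.5%. A gene start lay inside 339 control members (46.6%, interval 42.9 to 50.3%), against 9.84% of all control peaks, and inside 201 treatment members (42.9%, interval 38.4 to 47.6%), against 12.1%. A longer peak covers more positions of any kind, and the part of length in this share was not tested. Of these, 51 and 23 held 2 or more starts, and 23 and 8 held a pair of starts facing away from each other. The shares over all peaks were not computed for these counts.

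From the start these peaks reached mostly into the gene. The median reach in control was 706 bp upstream (quartiles 412 and 1101) and 1560 bp downstream (quartiles 1150 and 1881). In treatment it was 646 bp upstream and 1631 bp downstream. In most of them the summit lay near the start, within 250 bp of it in 208 of 339 and 128 of 201, and no share for narrower peaks was computed. Further downstream than upstream reached 261 control members (77.0%) and 159 treatment members (79.1%). Peaks from 1000 to under 2000 bp that held a start did so in 77.3 and 74.8%, so the direction was that of gene-start peaks in general. At Foxo1 the control peak ran from 943 bp upstream to 2512 bp downstream, with its summit 3 bp upstream of the start, and the treatment peak from 952 to 2481 bp. At Jun, a gene with no introns, it ran from 1459 bp upstream to 1849 bp downstream in control and from 1435 to 1920 bp in treatment. Slfn2 leaned further into the gene, with 287 bp upstream and 2536 bp downstream in control, and 293 and 2481 bp in treatment.

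**Figure D3:**
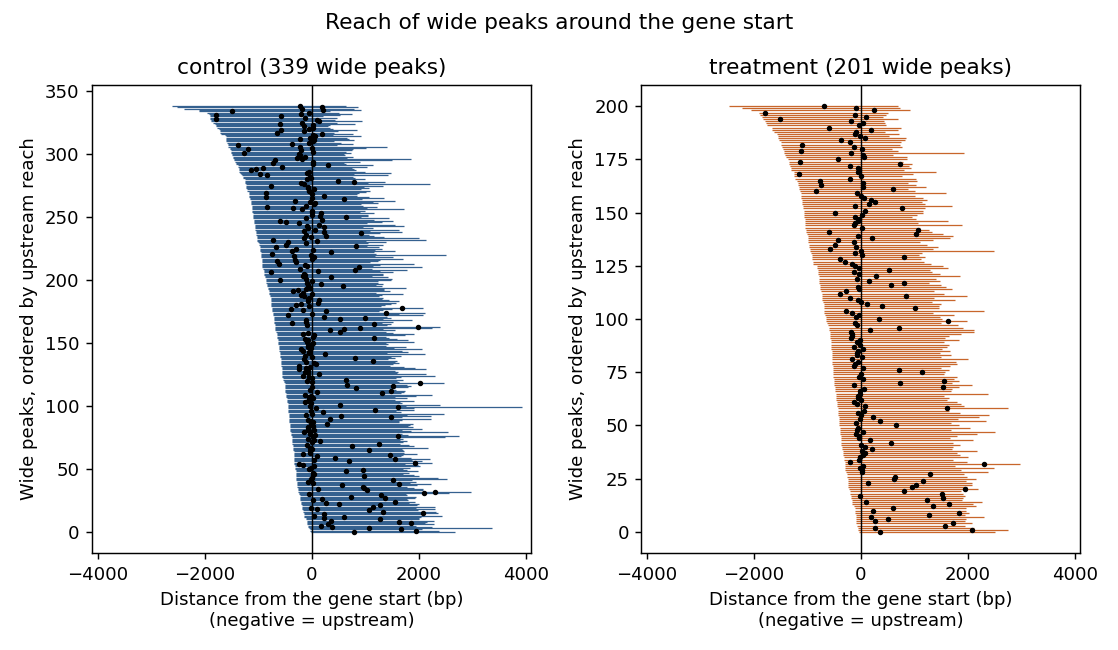
Every wide peak that holds a gene start of known strand is a horizontal line around that start (x axis, bp, negative upstream), ordered by upstream reach (y axis), with its summit as a black dot; control has 339 and treatment 201. Downstream reach exceeds upstream reach in 77.0 and 79.1% of them, and most summits stay near the start.

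Starts in wide peaks were richer in CG dinucleotides than starts in narrower peaks. Over the 300 bases of the promoter table, a median of 27 were found in the 581 promoters in wide control peaks (quartiles 18 and 38), 22 in the 11432 in narrower peaks (quartiles 15 and 30), 3 in the 8071 with no peak and 14 over all 20084. Treatment gave 27 in 359 promoters, 22 in 10960 and 4 in 8765. The quartiles of wide and narrower peaks overlap, and fewer than 5 CG dinucleotides were found in 14 promoters in wide control peaks (2.41%) and 13 in wide treatment peaks (3.62%), against 4.57% in narrower control peaks, 3.89% in narrower treatment peaks and 27.5% of all promoters. Slfn2 has 2 in the sequence shown above. Promoters wide in both libraries had a median of 28, those wide in control alone 27 and those in treatment alone 22 (35 promoters).

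Short motifs of factor families were counted in the same windows on both strands. The intervals treat each window as separate, though several can belong to 1 gene. GGGCGGG, bound by SP and KLF factors, stood in 60.9% of promoters in wide control peaks (interval 56.8 to 64.9%), 50.3% in narrower peaks and 34.5% of all. CCGGAAG, an ETS motif, went the other way, at 9.12% (interval 6.91 to 11.8%) against 18.8% in narrower peaks and 11.9% of all. Treatment gave 60.2 against 51.2% for the first and 7.24 against 19.6% for the second. CCAAT, the NFY motif, stood in 31.0% against 37.3% and 38.1% of all, and GCATGCG, the NRF1 motif, in 3.96% against 6.56% and 4.50%. TGACGTC of CREB factors stood in 4.13% against 5.74% and 3.92%, and CACGTG, an E-box, in 9.47% against 10.5% and 7.89%. The motifs of factors tied to T cells were infrequent in these windows, with TGTGGTT of RUNX factors in 2.58% against 3.44% and 4.77%, ATCAAAG of TCF and LEF factors in 1.03% against 2.27% and 3.26%, and TGANTCA of AP-1 in 3.10% against 4.48% and 7.06%. The SP and KLF motif holds a CG, as do those of ETS, CREB and NRF1 factors and the E-box, so their shares can move with the CG number. A match is a description of letters in the window.

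Genes were then read by function, with a gene counted when a wide peak touched either of its ends. Of all 20661 protein-coding genes 629 (3.04%) had one in control, 369 (1.79%) in treatment and 328 (1.59%) in both. Of the 14040 and 13082 genes with any peak there the shares were 4.48 and 2.82%. In the 14 lists of T cell and housekeeping functions 32 of 206 genes (15.5%) had one in control and 27 (13.1%) in treatment, 24 of them in both. The lists had been chosen with earlier results of these data known, and they hold much-studied genes, so these shares describe the lists. Of all genes in the 20 lists, 7 in control and 11 in treatment had no wide peak at an end and were the nearest gene to a wide interval elsewhere.

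**Figure D4:**
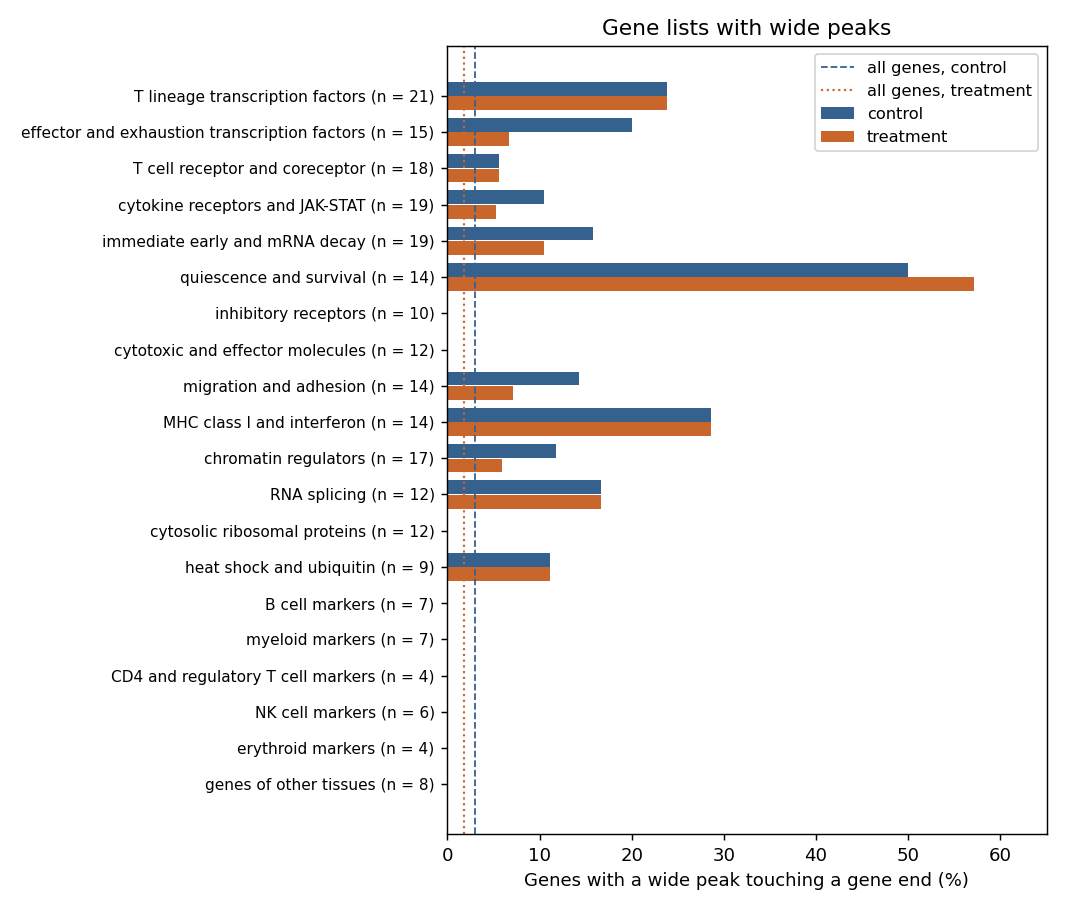
Bars give the percent of each list's genes with a wide peak touching a gene end in control and treatment (x axis), for 20 lists with the number of genes matched (y axis); the dashed and dotted lines are all protein-coding genes, 3.04 and 1.79%. Quiescence and survival genes reach 50% and 57.1%, and no bar is drawn for lists at 0.

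Genes of quiescence and survival, which hold T cells out of division, held the highest share, at 7 of 14 in control (50%, interval 23.0 to 77.0%) and 8 of 14 in treatment (57.1%, interval 28.9 to 82.3%), 7 of them in both. Klf13, a zinc finger factor, measured 2846 bp in control and 2795 bp in treatment. Slfn2 measured 2824 and 2775 bp (chr11:83064825-83067648 in control). Tob1, an antiproliferative gene, measured 2392 and 2347 bp. Cdkn1b, which encodes the cell cycle inhibitor p27, measured 2201 and 2073 bp, Btg1 2163 and 2156 bp, and Klf2, a factor of naive T cell trafficking, 2021 and 2282 bp. Btg2 was wide in treatment only, at 2160 bp, over 2 control peaks that together measured 1998 bp and covered 91.4% of it, so the region was accessible in both. The Bcl2 family genes Bcl2, Bcl2l11 and Mcl1 had narrower peaks, of 1237, 1168 and 485 bp in control, and Mcl1 had none in treatment. Klf3, Klf6 and Txnip were under the limit in both libraries as well.

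Transcription factors of the T lineage had 5 of 21 genes with a wide peak in each library (23.8%, interval 8.22 to 47.2%), 4 of them in both. Foxo1 was the widest, at 3456 bp in control and 3434 bp in treatment (chr3:52267394-52270849 in control). Zeb1, a zinc finger repressor, measured 2868 and 2897 bp, and Satb1, an organiser of chromatin in T cells, 2308 and 2646 bp. Ikzf1 measured 2082 and 2222 bp at its start, and a further interval of 3209 and 2866 bp lay 2030 bp beyond a gene end. Tcf7, which encodes TCF1, a factor of naive and stem-like T cells, measured 2812 bp at its start in control. In treatment that interval was met by 2 peaks of which the wider measured 1549 bp, together 2084 bp over the same span of 2812 bp. A second Tcf7 interval within the gene measured 3025 and 2423 bp and was wide in both. Ets1 was wide in treatment alone, at 2807 bp with 135 reads at the summit, over 2 control peaks that together measured 2024 bp. Runx3, Fli1 and Foxp1 had narrower peaks at their ends, of 989, 413 and 1906 bp in control, and wide ones in gene bodies near them. Those measured 2593 bp in control and 2494 bp in treatment for Runx3, which sets the CD8 lineage, 2546 and 2524 bp for the ETS factor gene Fli1, and 2034 and 2027 bp for Foxp1. All 3 were wide in both libraries.

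Factors of effector and exhausted cells had 3 of 15 genes with a wide peak in control (20%, interval 4.33 to 48.1%) and 1 of 15 in treatment (6.67%, interval 0.169 to 31.9%). Tox, which drives the exhaustion program, measured 2739 bp in control (chr4:6988923-6991661). Treatment had 2 peaks there, the wider of 1445 bp, together 2467 bp and covering 88.4% of the control interval. Tox2 measured 2001 bp in control, 1 bp above the limit, and treatment had 2 peaks of together 1559 bp. Eomes, a T-box factor of memory cells, measured 2192 and 2157 bp and was wide in both. Both intervals of the TOX family that passed the limit in control alone were thus broken in treatment and still accessible over most of their length. Tbx21, Prdm1, Batf, Nr4a1 and Id2 had narrower peaks, of 1685, 813, 1324, 652 and 1248 bp in control.

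Signalling genes were also among the members. Immediate early genes and regulators of mRNA decay had 3 of 19 in control and 2 in treatment, namely Jun at 3309 and 3356 bp, Zfp36l2, which destabilises mRNAs, at 3267 and 3188 bp, and Ier5 at 2003 and 1902 bp. Cytokine receptors and their signalling had 2 and 1 of 19: Socs3, an inhibitor of cytokine signalling, at 2292 and 1895 bp and Socs1, another, at 2248 and 2239 bp. The T cell receptor list had 1 of 18 at a gene end in both, Cd6, a surface receptor that modulates T cell activation, at 2866 and 2755 bp. Cd247, the zeta chain gene, had an interval of 2086 and 2070 bp in a gene body 10193 bp from its nearest end. Migration and adhesion genes had 2 and 1 of 14, the chemokine receptor gene Cxcr4 at 2693 and 2368 bp and the integrin gene Itgb2 at 2256 and 1650 bp.

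MHC class I and interferon genes had 4 of 14 in each library (28.6%, interval 8.39 to 58.1%), 3 of them in both. Irf2, an interferon regulatory factor, measured 2846 and 2549 bp, H2-K1, a classical class I gene, 2464 and 2353 bp, and Tapbp, which loads peptide onto class I, 2204 and 2180 bp. The last is the peak over the start of the neighbouring gene Rgl2, with its summit 37 bp from that start in control, and it touches the end of Tapbp. H2-D1 measured 2009 and 1918 bp. Irf1 was wide in treatment alone, at 2281 bp, over 2 control peaks of together 1879 bp. Because H2-K1 and H2-D1 are close copies of other class I genes, reads could be shared among them, and the authors' mapping filter is not given in the sources used here.

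Housekeeping lists were mixed. Splicing genes had 2 of 12 in both libraries, Hnrnpa2b1, whose interval also holds the start of Cbx3, at 2531 and 2374 bp and Hnrnpu at 2131 and 2050 bp. Chromatin regulators had 2 and 1 of 17, the histone methyltransferase gene Kmt2a at 2369 and 2359 bp and Tet3, which oxidises methylcytosine, at 2186 and 1822 bp. Away from their ends Arid1a, a subunit of a remodelling complex, had an interval of 2444 and 2463 bp, and Dnmt3a, a DNA methyltransferase gene, had 2 in control, of 2424 and 2097 bp, where treatment had 2148 and 1175 bp. Heat shock and ubiquitin genes had 1 of 9 in both, Hsp90ab1 at 2314 and 2188 bp. None was found at 12 cytosolic ribosomal protein genes, all of which had a narrower peak (1057 to 1523 bp in control). Nor was any found at the 12 cytotoxic and effector genes, Gzmb, Prf1 and Ifng among them, all of which had a peak, or at the 10 inhibitory receptor genes, of which 9 had one. Cd160, an inhibitory receptor gene with no peak at its ends, had an interval wide in both libraries in a gene body 14577 bp from its nearest end in control, of 2141 and 2099 bp. With 12 and 10 genes, 0 allows a share of up to 26.5 and 30.8% by the exact interval, which reaches above the 3.04% of all genes. The 6 lists of other cell types and tissues also had 0.

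Developmental regulators formed a further group of members, and more of them were wide in control than in treatment. Their 18 families were picked after the values were seen, so the counts are descriptive. Of 175 genes in homeobox, Sox, Forkhead, Wnt, Frizzled and Spalt families 20 (11.4%) had a wide peak in control and 7 (4%) in treatment, all 7 in both, against 3.04 and 1.79% of all genes. Among those wide in both were Sox21 at 2836 and 2760 bp, Six5 at 2569 and 2417 bp, Sall3 at 2375 and 2171 bp, Foxl2 at 2361 and 2463 bp, Fzd5 at 2297 and 2206 bp and Sox12 at 2237 and 2152 bp.

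The other 13 were wide in control alone. En2, a homeobox gene of the midbrain, measured 3643 bp in control (chr5:28165389-28169031), with 535 reads at the summit, and treatment had 2 peaks of together 3112 bp, the wider of 1885 bp. Nkx3-2 measured 3138 bp (chr5:41761457-41764594), with 564 reads, against 2 treatment peaks of together 2496 bp, the wider of 1432 bp. Foxq1 measured 2865 and 1336 bp, Cdx2, a homeobox gene of the gut, 2681 and 1454 bp, and Foxf1 2386 and 1517 bp. Wnt1 measured 2091 and 1308 bp, and Hoxb9 2041 and 1299 bp. Little was left in treatment at Pou3f3, with 2437 and 285 bp, and at Fzd8, with 2239 and 381 bp. Nkx2-2, a homeobox gene of the ventral neural tube, measured 2199 bp in control and had no treatment peak. Six4 and Foxd1 were near the limit in treatment, at 1955 and 1833 bp. The control interval counted for Six4 holds the start of the neighbouring gene Mnat1. Pou3f3, Fzd8 and Nkx2-2 had 101, 137 and 124 reads at the control summit, far below the median of 1109 over all control members.

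**Figure D5:**
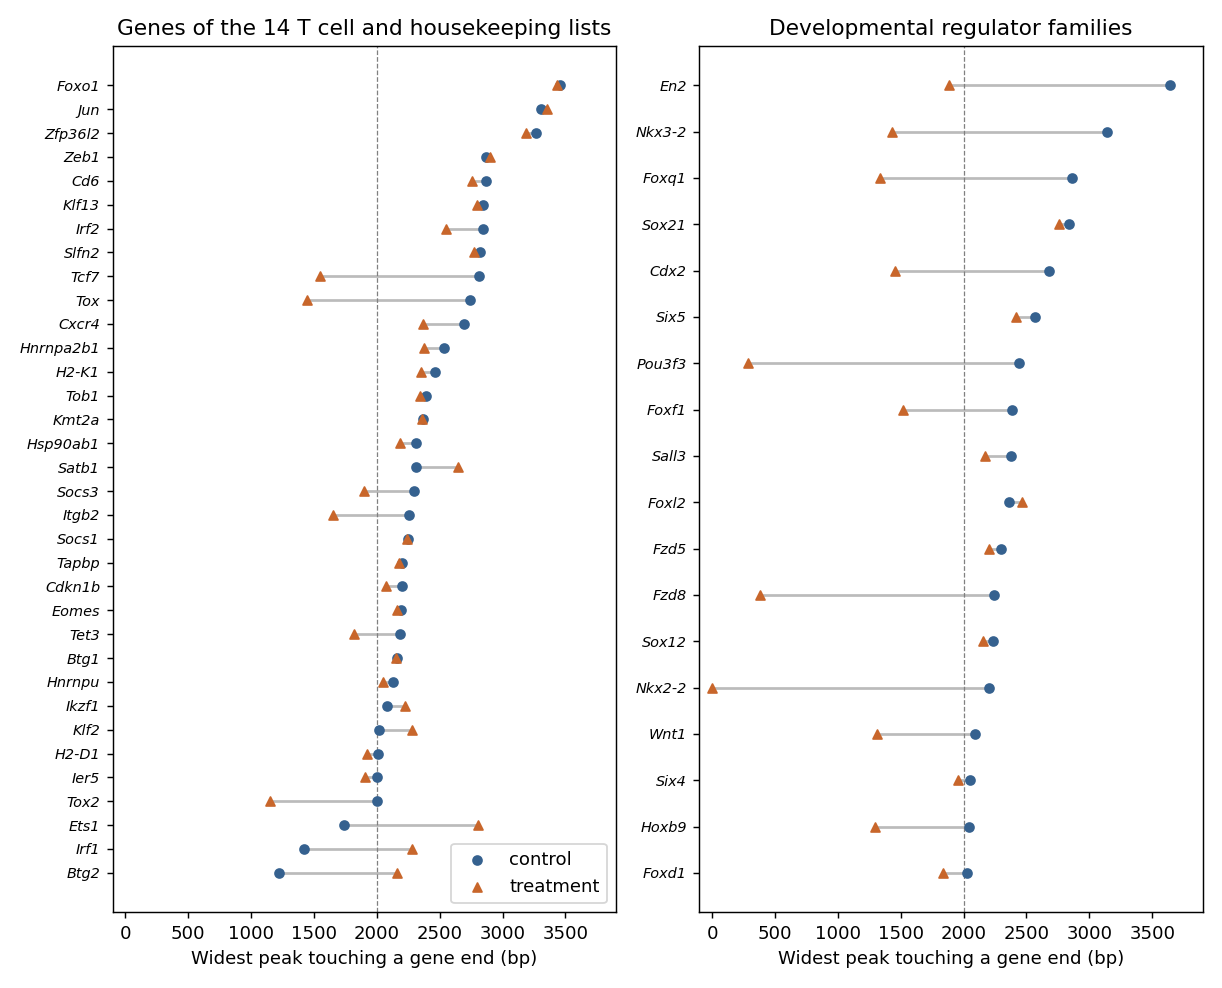
Width in bp (x axis) of the widest peak touching an end of each gene (y axis) in control, circles, and treatment, triangles, for 34 list genes with a wide peak in either library (left) and 18 developmental family genes (right); the dashed line marks 2000 bp and 0 means no peak. On the left 8 of 34 genes fall below 2000 bp in treatment, Tcf7, Tox and Tox2 among them, and Ets1, Irf1 and Btg2 are wide there alone; on the right 12 of the 18 genes drawn fall below 2000 bp in treatment.

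Members with no counterpart were few and shallow. In control they were Nkx2-2 (2199 bp, 124 reads at the summit), the adrenergic receptor genes Adra2c (2297 bp, 149 reads) and Adra1d (2120 bp, 123 reads), Casz1, a zinc finger gene (2125 bp, 116 reads), Slc18a3, the vesicular acetylcholine transporter gene (2350 bp, 77 reads), and an interval in the body of Pitrm1 (3095 bp, 67 reads). In treatment they were intervals near Nmi (2042 bp, 67 reads) and in the body of Herc2 (2502 bp, 52 reads). All 8 had at most 149 reads, against medians of 1109 over all control members and 987 over all treatment members.

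The smallest ratios among members with an overlap in control were seen near Arhgap33 (2103 bp against 231 bp in treatment), at Pou3f3, near Stk38l, at Lrrc32 (2157 against 317 bp), a receptor gene of latent TGF-beta, at Fzd8 and in Me3 (2049 against 395 bp). Another Lrrc32 interval was wide in both libraries, at 2489 bp in control and 2351 bp in treatment. In treatment the smallest ratios included 4 intervals between 20069366 and 20706077 on chromosome 8, near the predicted genes Gm21119 and 9530057J20Rik, of 2152 to 2650 bp with 79 to 106 reads, over control peaks of at most 936 bp. Crlf3, a cytokine receptor-like gene, had a treatment interval of 2180 bp with 290 reads next to it, over 2 control peaks of together 1431 bp.

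Several genes held more than 1 wide interval, 19 in control and 7 in treatment. Zmiz1 held 4380 and 2738 bp in control and 3181 and 2339 bp in treatment, and Cdk6 held 3737 and 2638 bp in control and 3806 and 2626 bp in treatment. Plxnc1, a semaphorin receptor gene, held 2985 and 2174 bp in control and 2811 and 2040 bp in treatment, and Septin9 2677 and 2402 bp and 2668 and 2296 bp. Tcf7 and Kbtbd11 held 2 in control alone. Sik3 held 2 in treatment alone, of 4641 and 2074 bp. Within 10 kb of another wide peak of the same list lay 12 control members (1.65%) and 4 treatment members (0.855%). No share for other peaks was computed, and wide peaks are few, so these counts do not describe their spacing.

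A larger share of the members between genes than of those at gene ends met several peaks of the other library. Of the control members between genes, 23 of 67 (34.3%, interval 23.2 to 46.9%) met several treatment peaks, against 45 of 234 in gene bodies (19.2%, interval 14.4 to 24.9%) and 63 of 421 at gene ends (14.96%, interval 11.7 to 18.7%). In treatment the shares were 35.3% (interval 22.4 to 49.9%), 14.6% (interval 9.69 to 20.8%) and 7.79% (interval 4.75 to 11.9%), in the same order. The share over all peaks of each position was not computed, so these values compare members with each other only. Wide in both were 31 of 67 control members between genes, 139 of 238 in gene bodies and 221 of 423 at gene ends. Median fold enrichment was 9.08, 8.11 and 9.48 in control and 6.28, 7.62 and 9.15 in treatment in these classes.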

How the data were processed

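ATAC-seq libraries, 1 titled control and 1 titled treatment, were read from the authors' deposited peak lists. Per the submitters' processing notes the tools were cutadapt 2.5, Bowtie2 2.3, Picard 2.20 and MACS2, and the build was mm10. Settings, mapping filters and whether reads were shifted for the transposase are not given in the sources used here. Each deposited peak has start and end coordinates in bp, the authors' score (not used), a fold enrichment (ratio to local background), −log10 p-value and −log10 q-value. The lowest deposited −log10 q was 2.00 in both lists, and 85285 and 65098 peaks were deposited. These values are the authors' and were used within a list only. Read totals were not used. Fold enrichment and −log10 p together gave a whole-number summit coverage (tolerance 0.001 in −log10 p) for 99.994% of the control list and 99.976% of the treatment list.

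Wide meant column 3 minus column 2 of at least 2000 bp on chromosomes 1 to 19. The members, the 20 gene lists (249 genes, of which 7 on chromosome X were not matched) and the motifs were chosen with earlier results of these data known, and the developmental families after seeing widths. Overlap meant at least 1 bp. Gene spans came from RefSeq (GRCm38.p6, 20661 protein-coding genes), and strand and promoter sequence for 16456 of these (20084 promoters from 250 bases before to 50 after a start, with none of chromosome 18). Named loci were, per library, the 12 widest, the 6 with the largest ratio to the widest overlapping peak, up to 6 with none, up to 4 per list (widest first), up to 6 genes with several, and 3 on each side of the limit. Others were named after their values were seen, and a few that the rule takes are not reported here. Percentages carry exact 95% binomial intervals. With 1 library per group no test was made. The scripts were tested on simulated peaks. Alternatives changed the limit, chromosomes, overlap, gene end window, width measure and list length. Python 3.11.15, pandas 2.3.3, NumPy 2.4.6, SciPy 1.17.1 and Matplotlib 3.10.9 were used.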

Additional observations from a re-analysis of the deposited data

Results flagged for a closer look

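Peaks on unplaced contigs were left out of every comparison in the report. Of these, 9 of 183 treatment peaks and 6 of 141 control peaks were at least 2000 bp wide, the widest 3168 and 3174 bp. They were picked out because they are a signal in data that no comparison used and lay above the number in the control list. With 1 library per group the difference of 9 against 6 was not tested.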

How the results depend on the processing

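Of 70 recomputed values 40 stayed within their counting interval (counts within 1.5 times) and 30 moved. A limit of 1500 bp gave 3450 control and 2200 treatment peaks, of which 58.1 and 91.1% overlapped a peak as wide in the other library, with a treatment ratio of 1.03, 56.8% of treatment peaks at gene ends and 42.7 and 37.4% of list genes. A limit of 2500 bp gave 167 and 108 peaks, 77.8% of treatment peaks overlapping one as wide, a treatment ratio of 1.01, 52.7 and 46.3% at gene ends and 6.31 and 5.34% of list genes. Gene end shares were 46.4 and 41.7% with a window of 500 bp, 73.1 and 68.4% with 2500 bp, and 72.1 and 66.9% by any overlap. Reciprocal overlap of 50% left 89.3 and 95.9% with a counterpart, and cutting the lists to equal length left 95.3% in treatment. The ratio to own width was 0.956 and 1.02 by the span of all overlapping peaks, and 1.02 in treatment with each list's narrowest peak subtracted. Pairs chosen on their mean width, an alternative added after seeing the data, gave 0.967 and 1.03. Members with 200 reads or more at the summit, also added after seeing the data, numbered 682 and 413, with ratios of 0.938 and 1.02. No paired analysis was possible because each group has 1 library, so no replicate could be left out either. Under 200 reads at the summit were found in 44 control and 51 treatment members, and the part of depth in their widths was not tested.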

Other observations

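Some wide peaks lay at RNA genes rather than at protein-coding ones. An interval of 2498 bp in control and 2330 bp in treatment (chr14:115040113-115042610 in control) lay 2856 bp from Mir17, the first microRNA of the Mir17 to Mir92a cluster, which is active in dividing lymphocytes. The start region of Dleu2, the host transcript of Mir15a and Mir16, held 2437 bp in control (chr14:61680840-61683276), where the widest treatment peak measured 1211 bp. Morrbid, a long noncoding RNA that acts on Bcl2l11, had 2237 bp in treatment (chr2:128427934-128430170) over a control peak of 1936 bp. A further interval of 2135 and 2096 bp lay 54280 bp from Jun in control, away from the wide peak at the gene itself.

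Chromosome X, left out of the comparisons, held 20 wide peaks in control and 15 in treatment, of 1792 and 1515 peaks. Chromosome Y held none of 50 and 44. The mitochondrial genome, which is not packed in nucleosomes, held 2 wide peaks in each list, up to 4660 and 4709 bp. By chromosome the share of wide peaks ran from 0.573% (chromosome 16) to 1.24% (chromosome 17) in control and from 0.511% (chromosome 4) to 1.12% (chromosome 17) in treatment.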
